A study of Homo sapiens with 12 samples.

Results

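The Notch receptors, ligands and targets were described in SKBR3 cells, a HER2-positive human breast cancer line that carries many copies of ERBB2, across treatment with lapatinib, GSK126 or both. The set was defined by gene symbol and took 10 genes, all found among the 22170 genes of the table: the receptors NOTCH1, NOTCH2, NOTCH3 and NOTCH4, the ligands JAG1, JAG2 and DLL1, and the targets HES1, HEY1 and NRARP. Lapatinib blocks the kinases of HER2 and the EGF receptor, and GSK126 blocks EZH2, the enzyme that places the repressive mark on lysine 27 of histone H3. All 4 groups were one unmodified (wild-type) cell line with 3 RNA-seq libraries each, 12 in all. DMSO cells received solvent throughout. Lapatinib cells received solvent up to day 0 and then 100 nM lapatinib for 24 h. GSK126 cells received 5 µM GSK126 from day -6, for 7 days up to harvest, and the cells of the combination group had the same exposure with 100 nM lapatinib added for the last 24 h. Whether replicate libraries stem from independent cultures is not stated in the labels, so every p-value below measures the spread between libraries alone, which may be technical.

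Notch signalling passes between neighbouring cells: a ligand on one cell, of the Jagged or Delta-like family, pulls on a Notch receptor on the next. The receptor is then cut by an ADAM protease and by gamma-secretase, and its freed intracellular part enters the nucleus, where it joins the DNA-binding protein RBPJ and a Mastermind coactivator and switches on targets. HES1 and HEY1 encode repressors of transcription, and NRARP encodes a small protein that feeds back on the receptor's intracellular part. In the mammary epithelium the pathway is known for its part in choosing luminal over basal fate.

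The promoters of JAG1, JAG2 and NRARP, members called below in at least 2 comparisons, are shown with that of HES1, whose level did not pass the test in any comparison, since HES1 was the one member whose promoter held the core of the RBPJ site. Each is the run of 250 bases before the gene's start in RefSeq on build GRCh38.p14, read 5′ to 3′ on the gene's strand: HES1 at chr3:194135898-194136147 (plus strand), JAG1 at chr20:10674000-10674249 (minus), JAG2 at chr14:105168777-105169026 (minus) and NRARP at chr9:137302272-137302521 (minus). Capitals mark TGGGAA, searched on both strands.
HES1: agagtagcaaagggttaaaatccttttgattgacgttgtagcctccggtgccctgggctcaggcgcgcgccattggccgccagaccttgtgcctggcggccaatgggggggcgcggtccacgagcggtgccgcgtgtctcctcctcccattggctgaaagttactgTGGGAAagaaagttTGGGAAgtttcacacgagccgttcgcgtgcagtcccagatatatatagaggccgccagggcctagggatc
JAG1: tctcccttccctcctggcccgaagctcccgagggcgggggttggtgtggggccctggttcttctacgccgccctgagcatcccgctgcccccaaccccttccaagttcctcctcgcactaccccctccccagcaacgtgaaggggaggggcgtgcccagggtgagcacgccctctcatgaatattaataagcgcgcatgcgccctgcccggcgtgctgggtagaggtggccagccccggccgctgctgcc
JAG2: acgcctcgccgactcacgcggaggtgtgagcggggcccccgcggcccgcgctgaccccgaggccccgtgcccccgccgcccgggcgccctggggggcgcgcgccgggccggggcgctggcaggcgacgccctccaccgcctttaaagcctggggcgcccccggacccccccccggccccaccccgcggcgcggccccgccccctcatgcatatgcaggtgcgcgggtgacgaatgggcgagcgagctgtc
NRARP: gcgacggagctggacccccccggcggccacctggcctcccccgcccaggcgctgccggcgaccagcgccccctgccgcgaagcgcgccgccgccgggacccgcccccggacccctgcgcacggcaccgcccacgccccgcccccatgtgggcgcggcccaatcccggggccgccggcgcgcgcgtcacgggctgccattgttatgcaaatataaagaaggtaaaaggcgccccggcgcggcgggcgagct
Of the 10 members, 8 had a promoter in that table, and HEY1 and DLL1 had none. TGGGAA lay in 1 of the 8, that of HES1, at 84 to 79 and at 70 to 65 bases before the start. The same letters were in 20.9% of all 35116 promoters of this length and in 19.4% of the 10220 that belonged to genes tested here, and a match describes the letters only. The promoters of JAG2 and NRARP held 38 and 39 CpG pairs, more than 94.9% and 95.9% of the promoters of tested genes (median 21). Those of JAG1 and HES1 held 17 and 18.

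The libraries held 17.7 to 30.3 M reads in genes. Values are reads per gene over the library's size factor, called normalized counts here. Luminal epithelial markers (8 listed, KRT8, KRT18, KRT19 and ERBB2 among them) summed to between 501472 and 894073 per library, while CDH1, the epithelial cadherin, was at 0 in 8 of 12 libraries and at most 12.4. The first combination library stood apart: 21669 genes had a read there, and 15059 to 17338 genes in each of the remaining libraries. Libraries were also sorted into 3 patterns by their mix of spike-in RNAs. Neither the number of patterns nor how distinct they are was tested. Every DMSO and every lapatinib library had the same pattern, shared by 2 combination libraries. The first GSK126 library had another, and the other GSK126 libraries shared the last with the first combination library. GSK126 and DMSO libraries therefore never shared a pattern, and what follows the drug and what follows that pattern cannot be told apart there by leaving libraries out. A model term for the pattern rests on the first combination library. Lists of markers of other cell types moved with the drugs, and their part in the results was not tested. The 4 basal markers summed to 65.1 to 148 normalized counts in DMSO, 108 to 115 with lapatinib, 168 to 268 with GSK126 and 216 to 295 with both. Most of that sum was ACTA2, with means of 73.0, 90.7, 174 and 210 in that order. KRT5 did not follow it, with means of 26.0, 14.8, 41.6 and 21.5, and the group means of KRT14 and TP63 were at most 12.6. The 5 immune markers, mostly CD68, summed to 178 to 209, 233 to 318, 281 to 446 and 637 to 759 in the same order, with CD3E and LYZ at 0 in DMSO. The 7 fibroblast markers summed to 250.1 to 393, 202 to 245, 142 to 242 and 70.4 to 187. In bulk RNA, fewer cells of a kind and less RNA per cell cannot be told apart.

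Untreated SKBR3 cells had RNA of 3 of the 4 receptors and of JAG2, with JAG1 lower and NOTCH4 and DLL1 at or near 0. Per kilobase of exon (lengths from GENCODE v29), HES1 stood highest in DMSO at 2465 ± 526 normalized counts per kb (SD, n = 3), followed by NOTCH3 at 181 ± 48.3 and NOTCH2 at 138 ± 36.4. NRARP (72.8 ± 16.6), NOTCH1 (56.7 ± 21.8), JAG2 (45.6 ± 11.1) and HEY1 (33.7 ± 4.53) came next on the same scale. JAG1 was at 8.65 ± 3.42 per kb, NOTCH4 at 0.303 ± 0.525 and DLL1 was listed at 0 in the 3 libraries. In this order the libraries of neighbours did not overlap between HES1 and NOTCH3, NOTCH2 and NRARP, HEY1 and JAG1, or JAG1 and NOTCH4, and the others could not be ranked beyond their spread. With both drugs the order per kb had changed: HEY1 reached 206 ± 7.47, with libraries that overlapped those of NOTCH2 (194 ± 33.1) and NOTCH3 (215 ± 56.6), and JAG1 at 44.6 ± 5.14 was above NRARP (25.6 ± 4.47) and JAG2 (25.3 ± 3.82).

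GSK126 raised HEY1 and JAG1, with or without lapatinib, and raised JAG2 against DMSO. Lapatinib lowered NRARP and JAG2, with or without GSK126. HES1, NOTCH2 and NOTCH3 passed no test, and NOTCH1 passed in 1 comparison. The filter on low values, 10 or more normalized counts in 3 or more libraries, was passed by 8 of the 10 members, leaving out NOTCH4 and DLL1. Changes are differences of log2(value + 1), which understate the change of low genes, tested with limma over 14179 genes and called at a Benjamini-Hochberg adjusted p under 0.05.

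**Figure D1:**
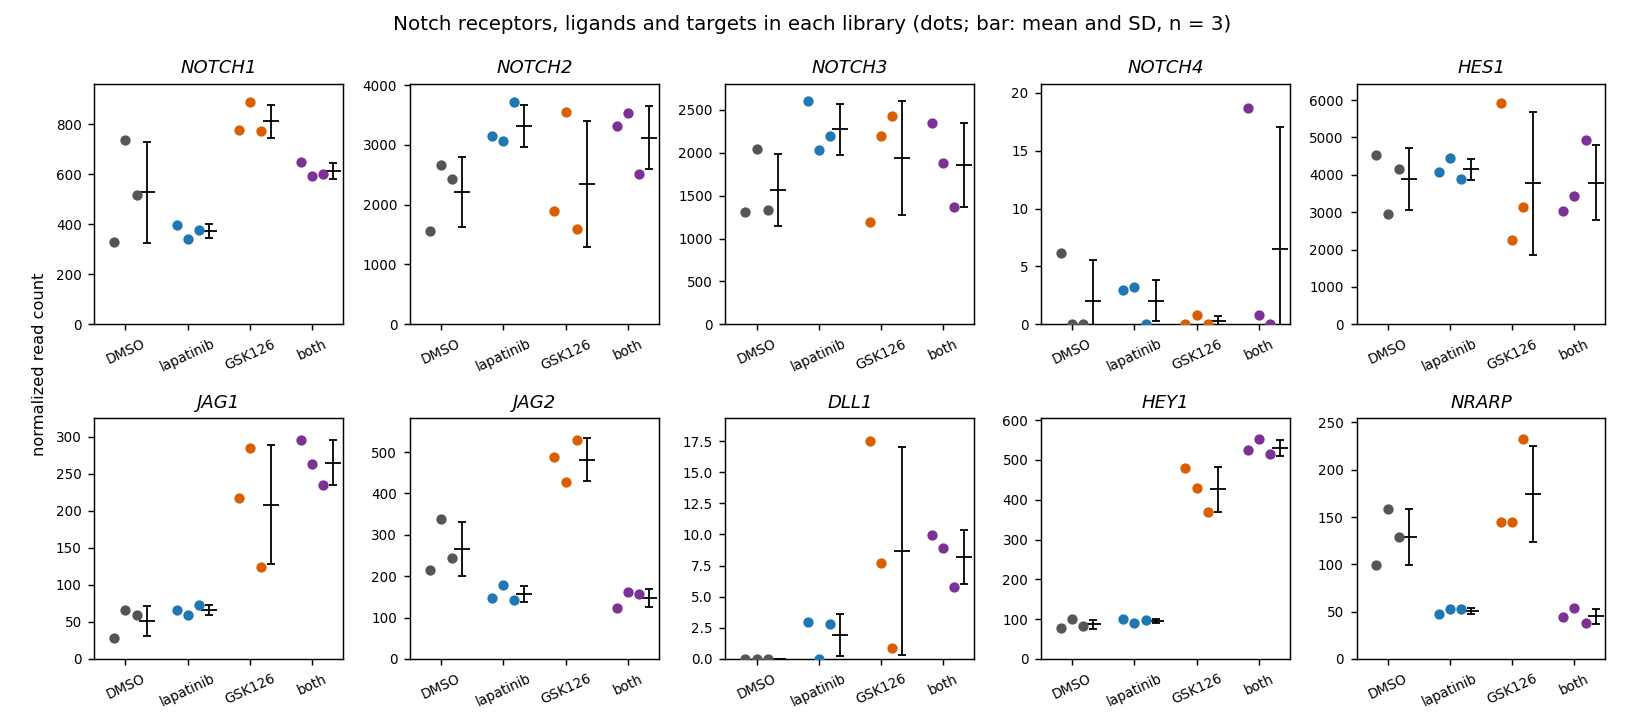
Normalized read count (vertical axis, linear from 0) of each of the 10 members in each of the 12 libraries (dots), by treatment, with the mean and SD of 3 libraries beside them. HEY1 and JAG1 sit higher in both GSK126 groups, NRARP and JAG2 lower in both lapatinib groups, and the dots of HES1 overlap in all 4 groups.

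Lapatinib against DMSO called 2 of the 8 tested members, both lower and none higher, where 14.3% of all tested genes were called lower and 13.7% higher (28.0% in all). At an unadjusted p under 0.05, 1 member was higher, NOTCH2, and edgeR and DESeq2 on the recovered reads called 0 higher. GSK126 against DMSO called 3, all higher, where the background was 10.7% higher and 3.93% lower (14.6% in all). Lower members numbered 0 at an unadjusted p and by both other tools. Adding GSK126 to lapatinib called 3 of 8 higher, beside 11.5% of all genes (6.35% lower, 17.9% in either direction), and adding lapatinib to GSK126 called 2 of 8 lower, beside 9.71% (8.48% higher, 18.2% in either direction). In these comparisons 0 members moved the other way by limma, at an unadjusted p or by edgeR or DESeq2. The libraries of the compared groups did not overlap in 3 of the 8 members for lapatinib against DMSO (55.5% of all genes), in 4 for GSK126 against DMSO (24.0%), in 3 for GSK126 on lapatinib (47.3%) and in 4 for lapatinib on GSK126 (29.7%). The median change of the 8 members was 0.13 with lapatinib (all tested genes 0.04), 0.56 with GSK126 (all -0.04), -0.09 for GSK126 on lapatinib (all -0.03) and 0.03 for lapatinib on GSK126 (all 0.04). Scaled to the spike-in total instead, the calls against DMSO were lost for lapatinib in NRARP (limma adjusted p = 0.0702) and JAG2 (adjusted p = 0.174) and for GSK126 in JAG1 (adjusted p = 0.0672) and JAG2 (adjusted p = 0.796), as was JAG1 for GSK126 on lapatinib (adjusted p = 0.267), each with its direction kept. JAG2 with lapatinib also missed with total-count scaling (adjusted p = 0.0832), and with GSK126 when only those groups were fitted (adjusted p = 0.0813). The lapatinib comparisons, DMSO and GSK126 as their controls, used separate libraries, and so did the GSK126 comparisons with DMSO and lapatinib as controls, but a lapatinib and a GSK126 comparison share libraries and are given side by side only.

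**Figure D2:**
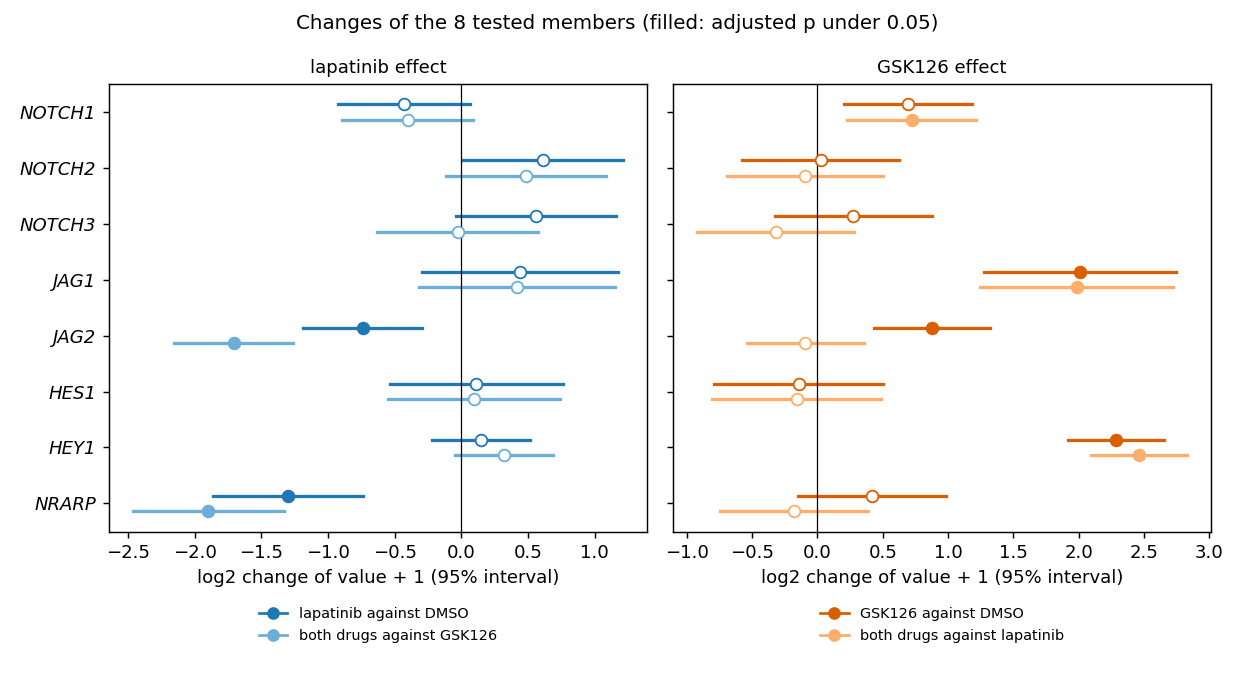
Change of log2(value + 1) with its 95% interval (horizontal axis) for the 8 tested members, the lapatinib effect on the left and the GSK126 effect on the right, each measured without the other drug (dark) and with it (light). Filled dots had an adjusted p under 0.05: HEY1 and JAG1 in both GSK126 comparisons, JAG2 and NRARP in both lapatinib comparisons, JAG2 also for GSK126 against DMSO and NOTCH1 for GSK126 on lapatinib.

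Among the receptors, NOTCH1 was highest with GSK126, and higher with both drugs than with lapatinib. NOTCH1 measured 331, 736 and 517 normalized counts in the DMSO libraries, 398, 343 and 377 with lapatinib, 777, 889 and 773 with GSK126, and 649.7, 593 and 599 with both. Every GSK126 library lay above every library of the other groups, and every combination library lay above every lapatinib library. Adding GSK126 to lapatinib raised NOTCH1 by 0.72 ± 0.23 on the log2 scale (SE, limma adjusted p = 0.0441). That call was lost in 15 of 27 alternatives, and without the second lapatinib library the adjusted p was 0.15. Against DMSO the GSK126 change was as large, 0.69 ± 0.23, with an adjusted p of 0.0606, and without the second DMSO library it was 0.97 with an adjusted p of 0.00683. For lapatinib NOTCH1 differed by -0.43 ± 0.23 from DMSO (adjusted p = 0.18) and by -0.40 (95% interval -0.90 to 0.09, adjusted p = 0.24) on top of GSK126. Without the first DMSO library the former was -0.73 with an adjusted p of 0.0145.

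NOTCH2 and NOTCH3, the receptors with the most RNA per kb, were not called in any comparison. NOTCH2 measured 1554, 2662 and 2437 in DMSO, 3150.3, 3071 and 3711 with lapatinib, 1892, 3550.1 and 1588 with GSK126, and 3312, 3533 and 2519 with both. The lapatinib libraries lay above those of DMSO, with a difference of 0.61 ± 0.28 (95% interval 0.01 to 1.21, limma adjusted p = 0.12). The second GSK126 library stood with the lapatinib-treated ones, and without it the comparison with DMSO gave an adjusted p of 0.0331, and lapatinib on GSK126 gave 0.83 (adjusted p = 0.0154) in place of 0.49 (adjusted p = 0.241). NOTCH2 shares long stretches of near-identical sequence with NOTCH2NL, which measured 443 to 1054 over the 12 libraries, and reads could be split between them, so both values are uncertain. NOTCH3 measured 1314, 2048 and 1334 in DMSO, 2601, 2028 and 2195 with lapatinib, 1187, 2196 and 2433 with GSK126, and 2342, 1877 and 1362 with both. Its groups overlapped throughout, and the 95% intervals of its changes ran from -0.04 to 1.16 for lapatinib and from -0.33 to 0.87 for GSK126 against DMSO. Without the first GSK126 library the lapatinib change of NOTCH3 had an adjusted p of 0.0426. NOTCH4, best known from endothelial cells, was near the limit of detection, with 5, 6, 1 and 16 reads in all in the DMSO, lapatinib, GSK126 and combination groups, 15 of the last 16 in the first combination library.

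Of the ligands, JAG1 and JAG2 changed places: per kb, JAG2 was the higher in DMSO and JAG1 the higher with both drugs. JAG1 measured 28.2, 66.2 and 59.8 normalized counts in DMSO, 65.6, 59.6 and 73.2 with lapatinib, 217, 285 and 125 with GSK126, and 296, 264 and 235 with both. Every library that had received GSK126 lay above every one that had not. GSK126 raised JAG1 by 2.01 ± 0.34 on the log2 scale against DMSO (limma adjusted p = 0.00133) and by 1.99 ± 0.34 when added to lapatinib (adjusted p = 0.00113). With the spike-in pattern as a model term the change against DMSO was 1.69 with an adjusted p of 0.262, while the change on lapatinib was 1.90 with an adjusted p of 0.00455. Lapatinib differed from DMSO by 0.44 in JAG1 (95% interval -0.29 to 1.18, adjusted p = 0.355).

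JAG2, the other Jagged ligand, responded to both drugs in opposite directions. JAG2 measured 216, 339 and 243 normalized counts in DMSO, 148, 179.9 and 143 with lapatinib, 487, 428 and 530.4 with GSK126, and 122, 163 and 158 with both. The GSK126 libraries were the highest, those of DMSO came next, and the lapatinib and combination libraries overlapped below. Lapatinib lowered JAG2 by a log2 change of -0.74 ± 0.21 against DMSO (limma adjusted p = 0.018) and of -1.71 ± 0.21 in GSK126-treated cells (adjusted p = 0.000108). GSK126 raised JAG2 by 0.88 ± 0.21 against DMSO (adjusted p = 0.0119), and on lapatinib the change was -0.09 (95% interval -0.54 to 0.35, adjusted p = 0.834). The test of the difference between these effects, the interaction, was -0.97 ± 0.29 (95% interval -1.60 to -0.34) with an unadjusted p of 0.00566 and an adjusted p of 0.459, so it did not pass over all genes. The change against DMSO lost its call for lapatinib without the second DMSO library (adjusted p = 0.0723), the first lapatinib library (0.0667 as adjusted p) or the third (adjusted p = 0.0738), and for GSK126 without the first DMSO library (adjusted p = 0.0549) or with the spike-in pattern as a term (1.26, adjusted p = 0.105).

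DLL1, a Delta-like ligand, had 0 reads in the 3 DMSO libraries, which allows up to 3 reads over the group, 3, 0 and 3 reads with lapatinib, 16, 10 and 1 with GSK126, and 8, 11 and 6 with both. Pooled over the group, normalized DLL1 counts were 7.43-fold the DMSO limit with GSK126 and 7.49-fold that limit with both drugs. The limit allows for counting error in DMSO only. The reads of the treated groups were taken as counted, so these folds are not lower bounds. The third GSK126 library, with 1 read, lay at the level of the lapatinib libraries. Fitted without the filter on low values, DLL1 gave a limma adjusted p of 0.0476 for GSK126 against DMSO and of 0.177 for GSK126 on lapatinib.

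The 3 targets followed 3 courses. HEY1 measured 77.2, 99.8 and 83.2 normalized counts in DMSO, 99.9, 89.4 and 97.6 with lapatinib, 481, 429 and 369 with GSK126, and 524, 552 and 515 with both. No library without GSK126 came near any library with it. GSK126 raised HEY1 by 2.28 ± 0.17 on the log2 scale against DMSO (limma adjusted p = 2.54e-06, rank 37 of all genes by p) and by 2.46 ± 0.17 on lapatinib (adjusted p = 8.39e-07). Both calls held in all 27 alternatives, among them the spike-in pattern as a term (2.22, adjusted p = 0.00215, and 2.47, adjusted p = 3.36e-06) and leaving out the first combination library (2.47 on lapatinib, adjusted p = 1.86e-05). The combination libraries also lay above the GSK126 libraries, by 0.32 ± 0.17 (95% interval -0.05 to 0.69, adjusted p = 0.209), a difference that did not pass.

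NRARP had the course of JAG2 with respect to lapatinib. NRARP measured 99.3, 158 and 129 normalized counts in DMSO, 47.0, 53.2 and 52.6 with lapatinib, 145, 145 and 232 with GSK126, and 44.8, 53.4 and 37.6 with both. All 6 libraries that had received lapatinib lay below all 6 that had not. Lapatinib lowered NRARP by a log2 change of -1.30 ± 0.26 against DMSO (limma adjusted p = 0.00286) and of -1.90 ± 0.26 in GSK126-treated cells (adjusted p = 0.000298). The GSK126 change was 0.42 (95% interval -0.15 to 0.98, adjusted p = 0.344) against DMSO and -0.18 (95% interval -0.74 to 0.39, adjusted p = 0.728) on lapatinib.

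HES1, a target of Notch in many tissues, was by far the most abundant of the 10 genes per kb and had no call. HES1 measured 4543, 2956 and 4169 normalized counts in DMSO, 4083, 4454 and 3896 with lapatinib, 5931, 2247 and 3136 with GSK126, and 3038, 3421 and 4920.2 with both. The GSK126 libraries spanned those of all other groups. The 95% intervals of the HES1 change were -0.53 to 0.76 for lapatinib against DMSO, -0.79 to 0.51 for GSK126 against DMSO, -0.80 to 0.49 for GSK126 on lapatinib and -0.55 to 0.74 for lapatinib on GSK126, with limma adjusted p-values of 0.8 to 0.847. Changes within these intervals are compatible with the values at this spread, so the lack of a call does not show a lack of change.

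The interaction of the drugs called 0 of the 8 members by limma, where 0.0212% of all genes (3 of 14179) were called, and edgeR and DESeq2 called 0 as well. At an unadjusted p under 0.05 it numbered 1, JAG2. NRARP followed with -0.60 ± 0.37 and NOTCH3 with -0.59 ± 0.39 (adjusted p = 0.949 and 0.967). The effects of either drug on these genes are therefore not shown to differ with the presence of the other.

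Ratios of members within a library, taken per kb of exon, do not depend on how libraries are scaled; the pairs were chosen after the values were seen and are given as a description. The ratio of JAG1 to JAG2 per kb was 0.128 to 0.241 in DMSO, 0.326 to 0.504 with lapatinib, 0.231 to 0.653 with GSK126 and 1.46 to 2.39 with both drugs. Per kb, JAG1 exceeded JAG2 in the combination libraries and in no other. The ratio of HEY1 to NRARP per kb was 0.433 to 0.534 in DMSO, 1.15 to 1.46 with lapatinib, 1.09 to 2.28 with GSK126 and 7.09 to 9.40 with both. The ratio of HEY1 to HES1 per kb was 0.0104 to 0.0207 in DMSO and 0.0123 to 0.0153 with lapatinib, and 0.0496 to 0.117 with GSK126 and 0.064 to 0.106 with both. The targets changed relative to one another in each library, HEY1 upward against HES1 with GSK126 and NRARP downward against HEY1 with lapatinib.

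The other genes of the pathway, 45 of 46 listed by role and found in the table and 40 tested, gave 6 higher and 5 lower with lapatinib against DMSO (median change 0.10), 27.5% of those tested beside 28.0% of all genes, and 8 higher and 0 lower with GSK126 against DMSO (median 0.09), 20% beside 14.6%. At an unadjusted p 1 was lower with GSK126, and edgeR called 0 and DESeq2 called 1 lower. GSK126 on lapatinib gave 7 higher and 1 lower, and lapatinib on GSK126 5 higher and 3 lower, 20% each beside 17.9% and 18.2%. In either direction these shares lay near the background. By direction, the 8 of 40 higher with GSK126 stood beside 10.7% of all genes, and the 7 of 40 higher on lapatinib beside 11.5%. The 6 higher and 5 lower with lapatinib stood beside 13.7% and 14.3%, and the 5 higher and 3 lower on GSK126 beside 8.48% and 9.71%. The counts are a description, and whether they set the list apart was not tested. Of the 11 called for lapatinib against DMSO and the 8 on GSK126, 6 were shared in direction (6 of 11 and 6 of 8): DLL4, MAML3 and NEURL1 higher and HES4, HES6 and NEURL1B lower. Of the 8 called for GSK126 in each comparison, 7 were shared (7 of 8 in each), all higher: DLL3, DLL4, DTX4, HES2, MAML2, NEURL1 and NEURL1B. NEURL1, counted in both shared lists, passed the filter only through the combination libraries, where it was high. Its place in these counts is given no weight. Among the members, JAG2 and NRARP were shared between the lapatinib comparisons (2 of 2 in each) and JAG1 and HEY1 between those of GSK126 (2 of 3 in each). The share of calls in common over all tested genes was not computed, so these counts cannot set either list apart.

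**Figure D3:**
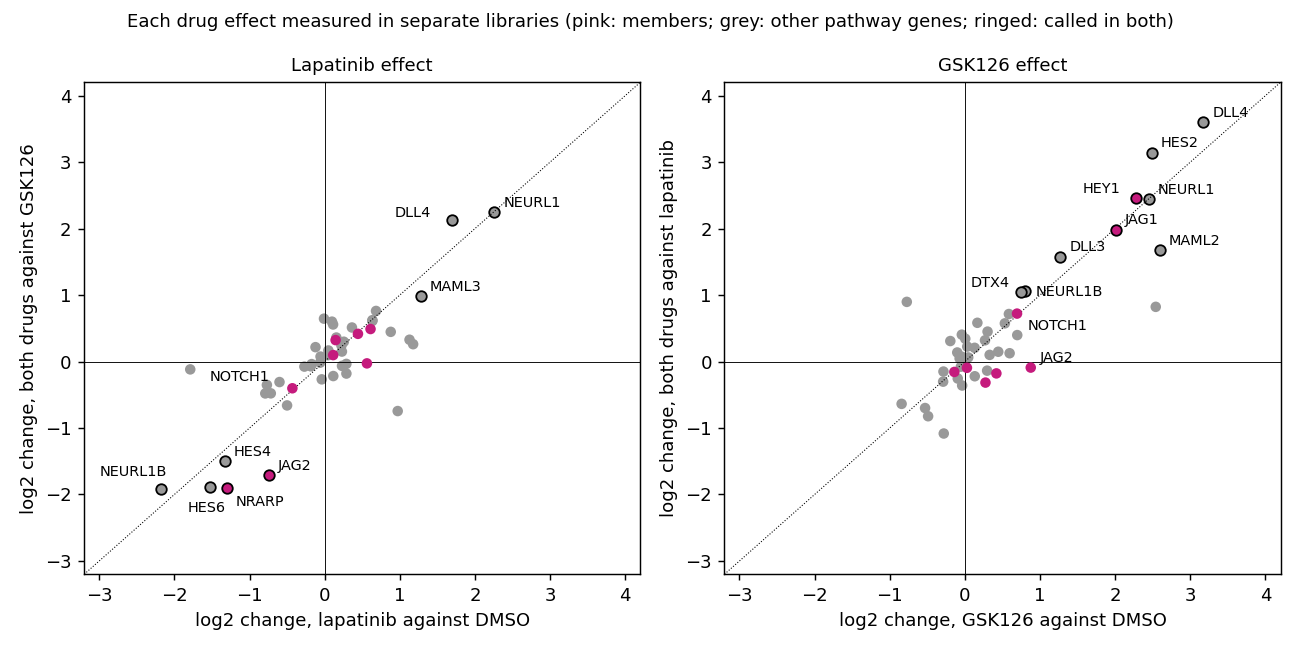
Change of log2(value + 1) of the 8 tested members (pink) and 40 tested other pathway genes (grey), measured without the other drug (horizontal axis) and with it (vertical axis), lapatinib on the left and GSK126 on the right; rings mark genes called in both and the dotted line marks equal change. JAG2 and NRARP are the ringed members on the left and HEY1 and JAG1 on the right, where JAG2 lies near 0 on the vertical axis.

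Of the other ligands, DLL4, a Delta-like ligand that activates Notch, rose with each drug. DLL4 measured 44.1, 7.90 and 23.5 normalized counts in DMSO, 70.5, 51.1 and 89.2 with lapatinib, 125, 216 and 263 with GSK126, and 851, 879 and 793 with both. The 4 groups did not overlap. DLL4 rose by 1.70 ± 0.47 with lapatinib against DMSO (limma adjusted p = 0.0176) and by 2.12 ± 0.47 with lapatinib on GSK126 (adjusted p = 0.00816). The GSK126 changes of DLL4 were 3.17 ± 0.47 (adjusted p = 0.000483) and, on lapatinib, 3.60 ± 0.47 (adjusted p = 0.000134). Without the first or the third lapatinib library the change against DMSO had an adjusted p of 0.0542 or 0.0728, and with the spike-in pattern as a term the GSK126 change against DMSO had an adjusted p of 0.0524 and the lapatinib change on GSK126 one of 0.134. DLL3, a divergent ligand, rose with GSK126 by 1.27 ± 0.30 against DMSO (adjusted p = 0.0115, and 0.297 as adjusted p with the pattern as a term) and by 1.58 ± 0.30 on lapatinib (adjusted p = 0.00213).

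JAG1, DLL4 and HEY1 are also known from endothelium, so the 7 endothelial markers were read beside the GSK126 result. Their summed level was 206 to 269.8 normalized counts in DMSO, 186 to 238 with lapatinib, 934 to 1561 with GSK126 and 784 to 1116 with both. Of these, CDH5, the endothelial cadherin, was at 111 to 182 in DMSO, 56.4 to 81.3 with lapatinib, 867 to 1529 with GSK126 and 739 to 1002 with both, and was called higher in both GSK126 comparisons. VWF, the endothelial clotting factor, went the other way, at 83.0 to 107 in DMSO, 125 to 157 with lapatinib, 26.5 to 63.5 with GSK126 and 21.8 to 63.5 with both, and was called lower in both GSK126 comparisons (limma adjusted p = 0.0344 and 0.00522). PECAM1, KDR, TEK, TIE1 and CLDN5 reached at most 3.29 in the 9 libraries outside the combination and at most 22.4 in it. The 22.4 was KDR in the first combination library, the one with reads in the most genes, and the median of KDR with both drugs was 8.09. TIE1 and CLDN5 were at 0 in all DMSO, lapatinib and GSK126 libraries.

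Ubiquitin ligases act on the ligands and let them pull. NEURL1B measured 729, 849.8 and 684 normalized counts in DMSO, 191, 138 and 169 with lapatinib, 1138, 1523 and 1298 with GSK126, and 372, 375 and 296 with both. Its 4 groups did not overlap. Lapatinib lowered NEURL1B by a log2 change of -2.18 ± 0.18 (limma adjusted p = 2.62e-06) against DMSO and of -1.92 ± 0.18 (adjusted p = 1.19e-05) on GSK126, and GSK126 raised it by 0.80 ± 0.18 (adjusted p = 0.00825) and 1.07 ± 0.18 (adjusted p = 0.000904). With the spike-in pattern as a term the GSK126 change against DMSO had an adjusted p of 0.322. NEURL1 passed the filter through the combination libraries alone (27.4, 39.6 and 46.3 normalized counts) and was below 10 in the 9 others, so its calls, included in the counts above, are given no weight. DTX4, which acts on the receptor's turnover, fell with lapatinib by a log2 change of -0.60 ± 0.12 (adjusted p = 0.00333) and rose with GSK126 by 0.75 ± 0.12 (adjusted p = 0.00113, and 0.0981 as adjusted p with the pattern as a term) and by 1.04 ± 0.12 on lapatinib (adjusted p = 6.07e-05). Of the 4 tested enzymes that add sugars to the receptor, POGLUT1 alone was called, in 1 comparison, lapatinib on GSK126 (0.60 ± 0.18, adjusted p = 0.0324, and 0.0916 as adjusted p without the first combination library), and under spike-in scaling its change was -0.44.

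Among the nuclear partners, RBPJ, the DNA-binding protein of the pathway, fell with lapatinib from 1357 to 1959 normalized counts in DMSO to 972 to 1095, a log2 change of -0.72 ± 0.19 (limma adjusted p = 0.0139). That call of RBPJ was lost without the first DMSO library (adjusted p = 0.0612), the third (adjusted p = 0.0552) or the first lapatinib library (adjusted p = 0.0569). It was also lost under spike-in scaling (adjusted p = 0.128), and RBPJ was not called for lapatinib on GSK126. MAML3, a Mastermind coactivator, rose with lapatinib from 96.1 to 163 in DMSO to 268 to 298 (1.28 ± 0.24, adjusted p = 0.00195). Under spike-in scaling that MAML3 change was 0.74 with a limma adjusted p of 0.518, and the lapatinib change on GSK126 was -0.058. MAML2, of the same family, rose with GSK126 from 11.7 to 35.6 in DMSO to 97.5 to 119 (2.59 ± 0.41, adjusted p = 0.000754, and 0.204 as adjusted p with the spike-in pattern as a term). Of the 9 cleavage enzymes, FURIN was called higher for GSK126 against DMSO (0.60 ± 0.18, adjusted p = 0.0379). That call of FURIN was lost in 16 of 27 alternatives, one of them without the third GSK126 library (adjusted p = 0.111). PSEN2, a cleavage enzyme and catalytic subunit of gamma-secretase, was lower for GSK126 on lapatinib (-0.82 ± 0.16, adjusted p = 0.00221).

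**Figure D4:**
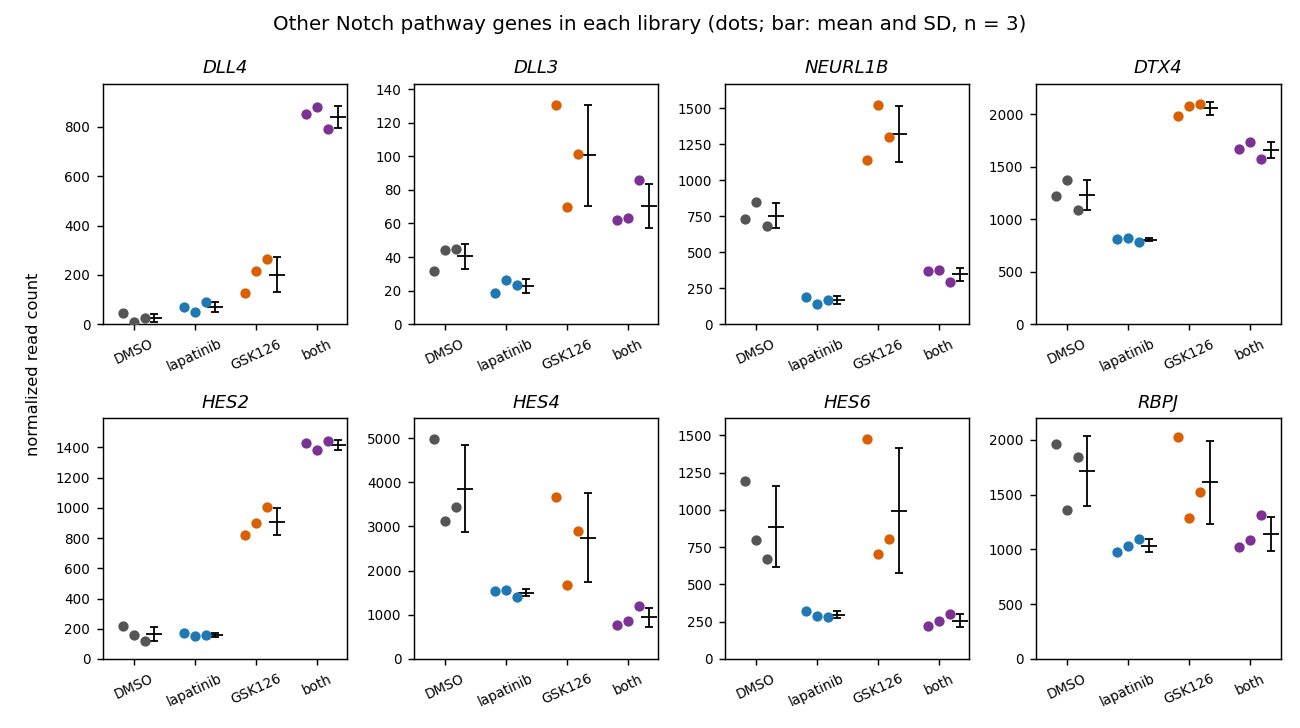
Normalized read count (vertical axis, linear from 0) of 8 other pathway genes in each of the 12 libraries (dots), by treatment, with the mean and SD of 3 libraries. DLL4 and HES2 are highest with both drugs, NEURL1B and DTX4 are lowest with lapatinib and highest with GSK126, and HES4, HES6 and RBPJ are lower with lapatinib.

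Other genes of the HES and HEY family split in the way of HEY1 and NRARP. HES2 measured 218, 156 and 122 normalized counts in DMSO, 174, 149 and 157 with lapatinib, 824, 899.6 and 1004 with GSK126, and 1430.0, 1381 and 1442 with both. GSK126 raised HES2 by 2.49 ± 0.19 (limma adjusted p = 3.09e-06) against DMSO and by 3.14 ± 0.19 (adjusted p = 4.02e-07) on lapatinib. Unlike HEY1, HES2 was also called higher for lapatinib on GSK126. That call was lost in 11 of 27 alternatives, and under spike-in scaling the change was -0.40. HES4 was at 3128 to 4977 in DMSO and 1404 to 1560.3 with lapatinib, and at 1675 to 3666 with GSK126 and 777 to 1194 with both. Lapatinib lowered HES4 by log2 changes of -1.33 ± 0.27 (adjusted p = 0.00284) against DMSO and -1.50 ± 0.27 (adjusted p = 0.00199) on GSK126. HES6, which is known to counter HES1, fell with lapatinib by log2 changes of -1.53 ± 0.27 (adjusted p = 0.00125) and -1.88 ± 0.27 (adjusted p = 0.000431). Of the 8 listed family members beside HES1 and HEY1, 7 were in the table and 5 tested, and these 3 were the ones called in any comparison.

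The likeness of profiles was measured as the root mean square difference of log2(value + 1), each gene centred on its own mean over the 12 libraries, which share their depth and treatment. The nearest members to each other were JAG2 and NRARP (0.315), JAG1 and HEY1 (0.370) and NOTCH2 and NOTCH3 (0.405). Among all other tested genes, the nearest to HEY1 were PARP12 (0.217) and PCDH7 (0.239), and to JAG1 NMI (0.263) and AUTS2 (0.334). The nearest to NRARP were MDC1 (0.223) and LMNB2 (0.255), and to JAG2 ADAM11 (0.270) and DIO2 (0.300).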

How the data were processed

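Messenger RNA was sequenced from 12 SKBR3 libraries, 3 in each of 4 treatment groups, with the groups taken from the labels. STAR, hg19 and DESeq2 are named in the submitters' processing notes; versions, counter and annotation are not given in the sources used here. The deposited signal is, for each gene, its read count over the library's size factor. All 100% of values were whole multiples of a library's smallest value (tolerance 0.01), so the authors' read counts could be recovered. The table held 22256 features, of which 86 spike-in transcripts were left out of the tests.

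Differences were tested in R 4.3.3 with limma 3.58.1, fitted to log2(value + 1), all 12 libraries in one fit (8 residual degrees of freedom, trended prior variance, two-sided), for genes with 10 or more normalized counts in 3 or more libraries. Adjusted p-values are Benjamini-Hochberg over 14179 genes. It was tested on simulated data. Alternatives changed the pseudocount, filter, scaling, prior, weights, samples in the fit, replicate block, a spike-in composition term, and the tool (edgeR 4.0.16 and DESeq2 1.42.0 on recovered reads), and left out each library. Beside the 10 members, other pathway genes were named when called with no overlap between libraries (at most 4 in each direction of a comparison, and every called gene in small role groups), and for members called in at least 2 comparisons the 2 genes nearest in profile. A gene of the original pathway list is not reported here and is left out of the counts. The members and lists were chosen with earlier results of these data known. Gene lengths are from GENCODE v29 (GRCh38), promoter sequences from RefSeq. Counting by strand and of reads matching several genes is not stated, so overlapping or near-identical genes may share reads.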

Additional observations from a re-analysis of the deposited data

How the results depend on the processing

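Of 270 values of the 10 called member results under 27 alternatives, 242 kept their call and 28 lost it, and 0 changed direction. HEY1 with GSK126 in both comparisons, and JAG2 and NRARP with lapatinib on GSK126, kept their calls in all 27. For member results not called, 24 values under the alternatives passed, 14 of them with array weights, and 54 values had the other sign, 0 of them passing. Depth and the spread of 3 libraries limit what can be seen: low members (NOTCH4, DLL1) could not be tested with the filter. The cause of the changes below was not tested.

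Scaling by the spike-in total moved the median change of all genes to -0.49 with lapatinib and to -0.49 for GSK126 on lapatinib. The median moved to -0.99 for lapatinib on GSK126 and to -0.48 for the interaction. Called members then numbered 0 with lapatinib, 1 with GSK126 and 1 for GSK126 on lapatinib (HEY1 each time), and called other pathway genes 3, 3 and 2, with 5 for lapatinib on GSK126. Calls over all 14179 genes moved as well. They numbered 785 with lapatinib, 578 with GSK126, 408 for GSK126 on lapatinib and 3057 for lapatinib on GSK126. The main fit gave 3973, 2069, 2537 and 2579 in that order. NRARP with lapatinib had a limma adjusted p of 0.0702, JAG2 0.174, and JAG1 0.0672 with GSK126 and 0.267 on lapatinib. Signs turned with lapatinib for JAG1 (-0.089), HES1 (-0.43) and HEY1 (-0.39). With lapatinib on GSK126 they turned for NOTCH2 (-0.55), JAG1 (-0.62), HES1 (-0.95), HEY1 (-0.72), POGLUT1 (-0.44), MAML3 (-0.058) and HES2 (-0.40). They also turned for the interaction of NOTCH1 (-0.48) and HEY1 (-0.33). With total-count scaling 1 member was called with lapatinib, beside 3790 of all 14179 genes, and NOTCH3 with lapatinib on GSK126 was 0.12. With upper-quartile scaling that value was 0.0051, and with a pseudocount of 5 the JAG1 interaction was 0.00083.

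With array weights, called members numbered 5, 6, 5, 6 and 2 in the comparisons in the order used above (lapatinib, GSK126, GSK126 on lapatinib, lapatinib on GSK126, interaction), and other pathway genes 21, 25, 25 and 6 in those that moved, namely all but GSK126 against DMSO. Over all genes this setting called 52.3%, 29.2%, 60.1%, 51.3% and 23.2%. Signs turned for NOTCH2 with GSK126 (-0.44), for NOTCH2 (0.085), JAG2 (0.0092) and NRARP (0.030) with GSK126 on lapatinib, and for the interaction of NOTCH2 (0.52), JAG1 (0.70) and HES1 (0.039). With the spike-in composition term, called members with GSK126 numbered 1 and other pathway genes 1, and other pathway genes numbered 17 with lapatinib and 3 with lapatinib on GSK126. Over all 14179 genes this term gave 446 calls with GSK126, 5578 with lapatinib and 1147 with lapatinib on GSK126. Signs turned for NOTCH2 with GSK126 (-0.015), JAG2 with GSK126 on lapatinib (0.039), NOTCH3 with lapatinib on GSK126 (0.019), and the interaction of JAG1 (0.21) and HES1 (0.081). With only the compared groups in the fit, 4 members were called with lapatinib, and other pathway genes numbered 3 with GSK126, 17 for GSK126 on lapatinib and 5 for lapatinib on GSK126. Over all 14179 genes that fit called 6091 with lapatinib, 869 with GSK126, 5094 for GSK126 on lapatinib and 948 for lapatinib on GSK126. DESeq2 called 112 genes for the interaction over all genes against 3 by limma and 3 by edgeR.

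With each library left out in turn, called members ranged from 1 to 3 with lapatinib, 2 to 4 with GSK126, 2 to 3 for GSK126 on lapatinib, 2 to 3 for lapatinib on GSK126 and 0 to 0 for the interaction. Other pathway genes ranged from 5 to 17, 6 to 10, 6 to 10, 4 to 12 and 0 to 0. With lapatinib they numbered 5 without the first lapatinib library, 7 without the third, 7 without the second or the third DMSO library and 17 without the first GSK126 library. The same runs called 2545, 2574, 3480, 2858 and 5688 of all 14179 genes. With lapatinib on GSK126 the other pathway genes numbered 5 without the first or the third combination library and 4 without the second. Over all genes these runs called 1494, 1906 and 1361. Calls over all genes ranged with lapatinib from 2545 to 5688 and with GSK126 from 1458 to 3252. They ranged from 1739 to 3585 for GSK126 on lapatinib and from 1361 to 4411 for lapatinib on GSK126. Changes that turned sign ranged for HES1 from -0.073 to 0.24 with lapatinib, -0.53 to 0.17 with GSK126 and -0.22 to 0.48 with lapatinib on GSK126. They ranged for NOTCH2 from -0.32 to 0.26 with GSK126 and -0.19 to 0.052 for GSK126 on lapatinib, for JAG2 from -0.17 to 0.04 for GSK126 on lapatinib, and for NOTCH3 from -0.35 to 0.18 with lapatinib on GSK126. The interaction ranged from -0.25 to 0.33 for NOTCH1, -0.36 to 0.22 for NOTCH2, -0.36 to 0.35 for JAG1 and -0.33 to 0.37 for HES1.

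Replicate numbers did not pair the libraries: the correlation of same-numbered deviations was over 0.1 in 4 of 18 pairs, and 4 of 12 libraries correlated best with their own number. With the replicate block, genes called numbered 3731, 1809, 2295, 2299 and 1 against 3973, 2069, 2537, 2579 and 3 without it, and NOTCH1 for GSK126 on lapatinib had an adjusted p of 0.0567.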
